A study of Mus musculus with 20 samples.

Results

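Collagen chain genes were taken as all genes whose symbol in the array annotation reads Col, a type number, the letter a and a chain number. The rule found 42 of the 18193 genes tested. They were read by 82 probe sets, a probe set being the group of array probes for 1 transcript, and 27 of the 42 genes had more than 1. Each gene was represented by its probe set with the highest mean over the 20 arrays. The 42 genes comprised 11 fibrillar chains (types I, II, III, V, XI, XXIV and XXVII), 6 chains of the basement membrane network (type IV) and 3 chains of hexagonal networks (types VIII and X). Another 9 encode fibril-associated collagens with interrupted triple helices (FACIT), 5 the beaded filament collagen VI, 1 the anchoring fibril collagen VII, 4 transmembrane collagens, 2 multiplexins and 1 the unclassed collagen XXVI.

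Collagens are secreted or membrane-bound proteins in which 3 α chains wind into a triple helix. A chain needs its partners: type I collagen joins the products of Col1a1 and Col1a2, type IV of basement membranes those of Col4a1 and Col4a2, and type VI those of Col6a1, Col6a2 and a further chain such as Col6a3. Fibroblasts are a main source of the fibrillar types and of type VI, while spermatogonial stem cells in the testis sit on a basement membrane built on type IV collagen.

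The study compared 6 groups of cultured mouse cells. Germline stem cells (GSC, 3 arrays) came from the testes of the OG2 strain, B6;CBA-Tg[Pou5f1-EGFP]2Mnn/J, which carries a green fluorescent reporter of Oct4, and were kept on mitomycin C-inactivated mouse embryonic fibroblasts in a serum-free medium with GDNF, EGF, bFGF and leukemia inhibitory factor (LIF). Germline pluripotent stem cells (gPS, 5 arrays) carry the same transgene and arose in wells plated with about 1000 GSC on fibroblasts. Their round, bright colonies appeared at 3 to 4 weeks and were expanded on fibroblasts under embryonic stem cell conditions. Embryonic stem cells (ESC, 3 arrays) were of the single line RW4, on a fibroblast feeder with LIF. ESC-like cells (3 arrays, ESC_like in the plots) came from another laboratory, which had derived them from testes of mice aged 0 to 2 days, and were grown on the same kind of feeder with LIF. Neural stem cells (NSC, 3 arrays) were made from embryonic stem cells with an Olig2-GFP reporter, and mouse embryonic fibroblasts (MEF, 3 arrays) from C3H embryos at E12.5. Strain or cell line, medium or, for the ESC-like cells, laboratory thus differed between most groups and cannot be told apart from the group. The gPS cells arose from GSC of the OG2 strain, so between GSC and gPS the medium changed but not the strain. The labels do not say whether arrays of a group came from separate cultures, so p-values measure the spread between these samples, which may be technical.

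The promoter sequences of 4 chains are shown first, chosen for their different patterns over the groups: Col1a2 and Col3a1, chains of the fibroblast fibril, Col11a1, high in NSC and MEF, and Col18a1, lowest in NSC. Each is the 250 bases before an annotated transcript start in RefSeq (build GRCm38.p6), written 5′ to 3′ on the gene's strand. Capitals mark a TATA box (TATAAA, read as TTTATA on the opposite strand), a CCAAT box (its name gives the letters, and ATTGG those of the opposite strand) or a GC box (GGGCGG, with CCGCCC opposite), each searched on both strands. Col1a2 lies at chr6:4505368-4505617 (+), Col3a1 at chr1:45311288-45311537 (+) and Col11a1 at chr3:114030290-114030539 (+). Col18a1 has an upstream start behind chr10:77166531-77166780 (-) and a second behind chr10:77113706-77113955 (-).
Col1a2: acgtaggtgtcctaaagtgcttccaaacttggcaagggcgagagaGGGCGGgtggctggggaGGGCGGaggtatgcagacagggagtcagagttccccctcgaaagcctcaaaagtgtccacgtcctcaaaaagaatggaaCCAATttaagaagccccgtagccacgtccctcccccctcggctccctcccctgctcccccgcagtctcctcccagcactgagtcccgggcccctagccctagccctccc
Col3a1: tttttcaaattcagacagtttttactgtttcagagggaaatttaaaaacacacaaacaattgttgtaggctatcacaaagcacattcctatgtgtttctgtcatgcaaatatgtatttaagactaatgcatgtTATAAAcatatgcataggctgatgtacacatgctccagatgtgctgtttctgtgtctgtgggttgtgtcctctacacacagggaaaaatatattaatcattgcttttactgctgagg
Col11a1: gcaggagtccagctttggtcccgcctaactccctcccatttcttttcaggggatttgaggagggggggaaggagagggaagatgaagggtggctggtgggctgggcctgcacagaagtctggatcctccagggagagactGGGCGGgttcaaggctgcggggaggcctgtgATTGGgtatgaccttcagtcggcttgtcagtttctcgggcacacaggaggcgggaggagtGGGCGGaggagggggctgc
Col18a1, upstream start: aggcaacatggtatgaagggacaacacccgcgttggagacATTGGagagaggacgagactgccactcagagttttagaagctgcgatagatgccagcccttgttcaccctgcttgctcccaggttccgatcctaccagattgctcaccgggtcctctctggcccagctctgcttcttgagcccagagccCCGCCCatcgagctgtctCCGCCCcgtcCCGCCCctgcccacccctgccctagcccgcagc
Col18a1, downstream start: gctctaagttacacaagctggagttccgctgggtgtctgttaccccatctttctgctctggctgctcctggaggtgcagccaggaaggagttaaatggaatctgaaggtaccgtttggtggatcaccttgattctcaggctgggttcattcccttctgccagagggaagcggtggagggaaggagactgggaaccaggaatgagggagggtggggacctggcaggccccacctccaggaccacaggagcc
The Col1a2 sequence held GC boxes 205 and 188 bases and a CCAAT box 109 bases before the start. Col3a1 held only a TATA box, 117 bases before the start, in sequence of 35.2% GC, the lowest GC content among the collagen promoters. The upstream Col18a1 start had a CCAAT box and 3 GC boxes, and the downstream start had none of the motifs. A promoter was listed for 33 of the 42 genes, 36 sequences in all, and 58.3% of these held a GC box, 36.1% a CCAAT box and 13.9% a TATA box. Over all 32851 listed promoters the shares were 32.7%, 33.8% and 12.4%, and the median GC content was 52.4% against 59.0% for the collagen promoters. A match is a description of the letters and no evidence of a bound factor. Col4a1 and Col4a2 start on opposite strands of chromosome 8 with start sites 21 bases apart, and Col4a5 and Col4a6 on opposite strands of the X chromosome with start sites 1343 bases apart.

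The deposited log2 intensities ran from 2.04 to 14.71 with a median of 4.98, and the number of arrays, not read depth, limits the precision here. Markers of each cell type were highest in the group of that label. The mean over 6 embryonic stem cell genes was 10.87 to 11.66 on the gPS, ESC and ESC-like arrays and at most 7.03 on the others. The mean over 6 germline genes was 10.04 to 10.14 on the GSC arrays and at most 5.93 elsewhere, and that over 6 neural stem cell genes 9.19 to 9.28 on the NSC arrays and at most 5.60 elsewhere, although the neural gene Sox1 read only 4.28 in NSC. Of 16 fibroblast markers 15 were measured, and their mean was 10.00 to 10.06 on the MEF arrays. GSC replicate 1 had the largest difference between the 3′ and 5′ probe sets of the Actb control, 1.25 log2 units against 0.12 to 0.57 on the other arrays, a sign of RNA quality. gPS replicate 2 had the highest level of many chains among the gPS arrays, and calls that change without either array are given beside the results.

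Across the 6 groups 23 of the 42 chains varied, at a Benjamini-Hochberg adjusted p under 0.05 in limma's F test with group means at least 1 log2 unit apart, against 51.5% of all genes. MEF had the highest mean in 18 of the 23. In 15 chains MEF was called higher than each of the other 5 groups, a pattern found in 3.91% of all genes: Col1a1, Col1a2, Col2a1, Col3a1, Col5a1, Col5a2, Col4a1, Col4a2, Col4a5, Col6a1, Col6a2, Col6a3, Col8a1, Col12a1 and Col16a1. A gene is called here if its adjusted p, taken over the 18193 genes, is under 0.05 and its groups differ 2-fold or more. The exceptions to the fibroblast peak were Col11a1 and Col9a3, highest in NSC, Col13a1 in GSC, Col18a1 in gPS and Col10a1 in ESC-like cells, and of these only Col10a1 was called above each of the other groups (background 0.302%). For GSC, gPS, NSC and ESC the count of chains that limma called above each other group was 0, where the backgrounds were 4.94%, 0.137%, 3.4% and 0.594%. At an unadjusted p under 0.05 in all 5 contrasts, with no minimum fold, the counts were 2 for GSC (Col13a1 and Col24a1), 2 for gPS (Col17a1 and Col18a1), 1 for NSC (Col9a3) and 0 for ESC. In 14 chains every group mean lay below the median of all values.

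**Figure D1:**
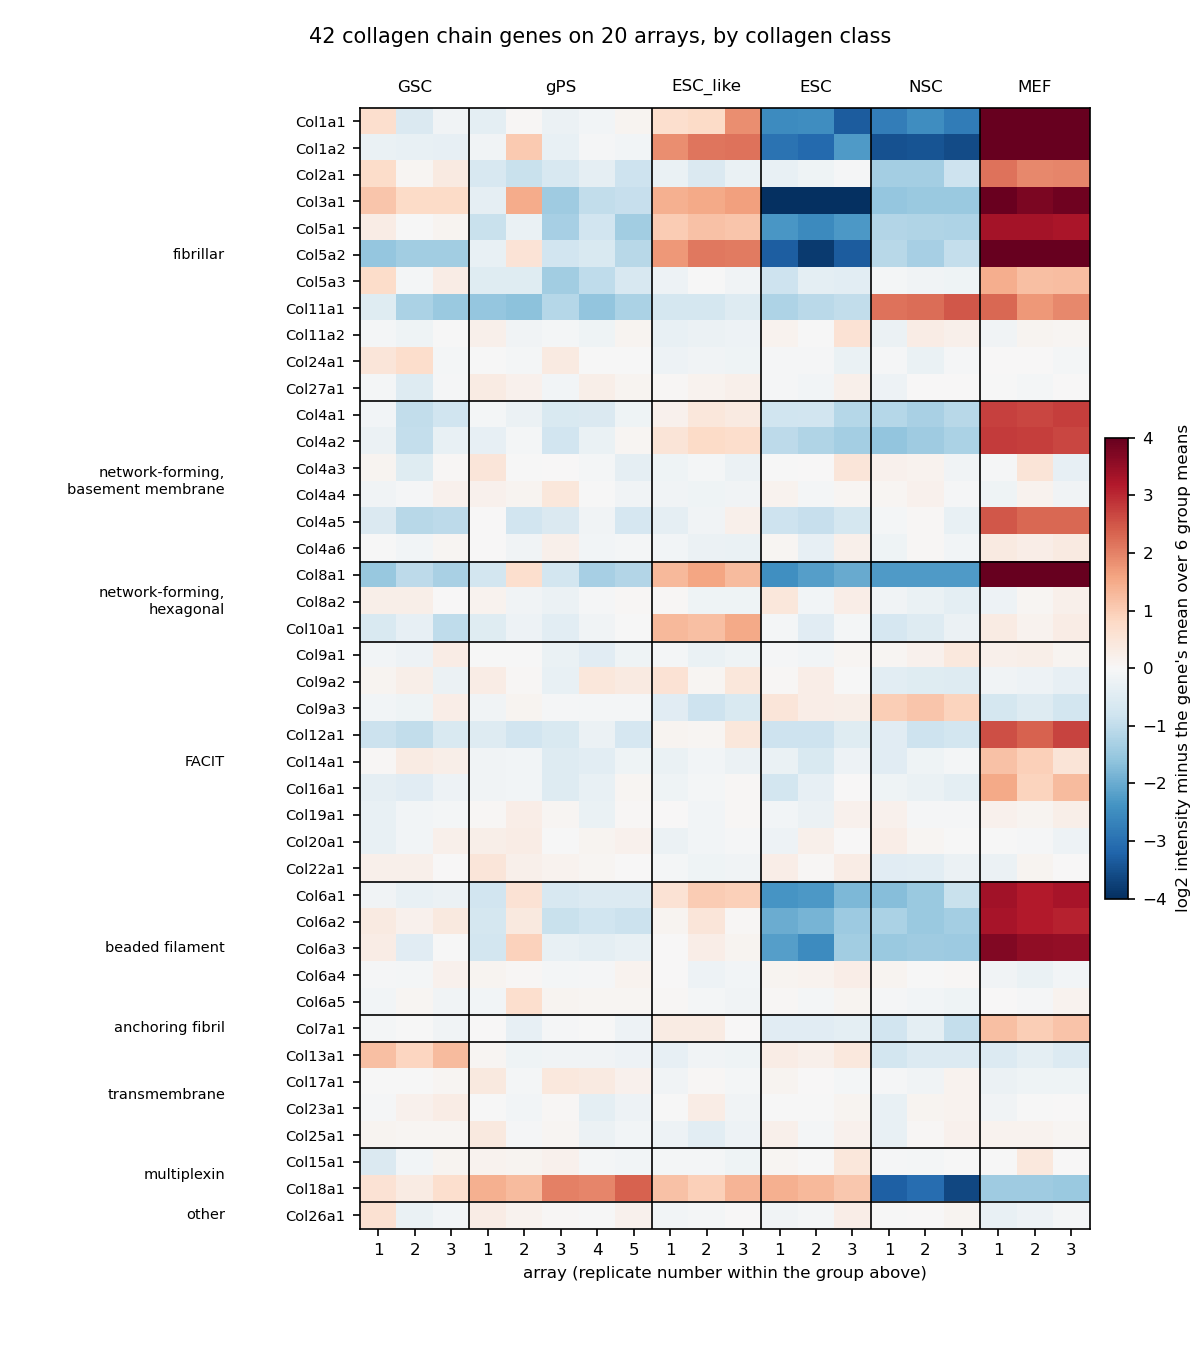
Log2 intensity of the 42 collagen chain genes (rows, by class) on the 20 arrays (columns, by group), as the difference from each gene's mean over the 6 group means; colours end at 4 log2 units either way. The 3 MEF columns are high for most fibrillar chains, for Col4a1, Col4a2 and Col4a5, for Col6a1, Col6a2 and Col6a3 and for Col8a1, the NSC columns for Col11a1 and Col9a3, and Col18a1 is low in NSC and MEF.

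Type I collagen, the main fibril of connective tissue, was far above every other group in MEF, low in ESC and NSC, and between these in the other 3 groups. In bulk RNA such as this, fewer cells of a type and less RNA per cell cannot be told apart. Col1a1 read 12.05, 11.92 and 12.00 on the MEF arrays, 5.01, 5.05 and 4.18 on the ESC arrays and 4.76, 5.04 and 4.73 on the NSC arrays. It read 8.17, 6.93 and 7.38 in GSC, 7.12, 7.56, 7.29, 7.41 and 7.61 in gPS and 8.18, 8.28 and 9.39 in ESC-like cells. GSC and gPS overlapped, and each lay above all ESC and NSC arrays and below the MEF arrays. Its partner Col1a2 read 13.21, 13.18 and 13.12 in MEF, 5.78, 5.63 and 6.46 in ESC and 5.27, 5.27 and 5.16 in NSC. In GSC it read 8.48, 8.45 and 8.40, in gPS 8.59, 9.78, 8.44, 8.70 and 8.64 and in ESC-like cells 10.60, 10.89 and 10.91. The ESC-like arrays stood above every GSC and gPS array, and gPS replicate 2 stood more than 1 log2 unit above the other gPS arrays. Over MEF minus ESC the log2 difference was 7.24 ± 0.29 (SE) for Col1a1 and 7.21 ± 0.25 (SE) for Col1a2, 152-fold and 148-fold on the linear scale (adjusted p 1.66e-14 and 1.03e-15, limma).

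Type III collagen, which shares fibrils with type I, showed the widest range of group means. Col3a1 read 11.91, 11.72 and 11.83 in MEF, 9.37, 9.47 and 9.58 in ESC-like cells and 9.04, 8.72 and 8.70 in GSC. It read 7.58, 9.44, 6.52, 6.96 and 7.02 in gPS, 6.39, 6.45 and 6.45 in NSC and 3.74, 3.48 and 3.62 in ESC. All GSC arrays lay above 4 of the 5 gPS arrays, while gPS replicate 2 lay above all GSC arrays. The gPS arrays differed among themselves more for Col3a1 than for the other chains, with an SD of 1.15 (n = 5) against 0.20 in GSC (n = 3). A second, dimmer probe set of Col3a1 gave group means of 9.04 in MEF, 4.63 in ESC-like cells, 4.28 in GSC, 3.71 in gPS, 3.68 in NSC and 3.11 in ESC. The order was kept but most groups lay closer together below MEF, so that GSC minus ESC was 1.17 in place of 5.21, and gPS minus ESC, NSC minus ESC, gPS minus GSC and gPS minus ESC-like were not called with it.

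Type V collagen, which starts fibrils and sets their width, followed type I in MEF but its brightest probe sets ordered GSC and gPS differently from chain to chain. Col5a1 read 11.87, 11.87 and 11.82 in MEF, 6.22, 6.00 and 6.26 in ESC and 7.38, 7.34 and 7.32 in NSC. It read 8.86, 8.55 and 8.66 in GSC, 7.67, 8.28, 7.22, 7.78 and 7.16 in gPS and 9.56, 9.74 and 9.66 in ESC-like cells, so that every GSC array was above every gPS array. Col5a2 read 12.85, 12.91 and 12.83 in MEF, 5.04, 4.52 and 5.01 in ESC and 7.23, 7.01 and 7.39 in NSC. In GSC it read 6.80, 6.96 and 6.96, in gPS 8.05, 8.90, 7.58, 7.74 and 7.22 and in ESC-like cells 10.08, 10.45 and 10.44. Here the order was the reverse of Col5a1, with every gPS array above every GSC array. The log2 difference gPS minus GSC was -1.07 ± 0.17 (SE) for Col5a1 (adjusted p 2.38e-05, limma) and 0.99 ± 0.24 (SE) for Col5a2 (95% interval 0.49 to 1.49), which just missed the 2-fold minimum. The dimmer probe sets gave -0.54 and -0.85 for Col5a1 and -0.23 for Col5a2, none of them called. The third chain, Col5a3, was highest in MEF at 6.93 ± 0.14 (SD, n = 3) and lowest in gPS at 4.84 ± 0.40 (SD, n = 5). Its second probe set stayed between 2.88 and 3.27 in all groups and called nothing.

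Type II collagen, the fibril of cartilage, and type XI, its minor partner, did not follow each other. Col2a1 read 8.33, 8.09 and 8.11 in MEF, 4.80, 4.82 and 5.34 in NSC and 5.86, 6.01 and 6.11 in ESC. It read 6.89, 6.24 and 6.54 in GSC, 5.54, 5.28, 5.54, 5.82 and 5.33 in gPS and 5.90, 5.58 and 5.90 in ESC-like cells. GSC was second to MEF, and NSC was lowest. Col11a1 read 7.80, 7.87 and 8.12 in NSC and 7.93, 7.38 and 7.56 in MEF, which overlapped. All other arrays lay lower, at 4.41, 4.56 and 4.66 in ESC, 5.17, 4.40 and 4.16 in GSC, 4.10, 4.02, 4.49, 4.05 and 4.38 in gPS and 4.93, 4.95 and 5.12 in ESC-like cells. Col11a1 was called higher in NSC than in ESC by 10.5-fold and in MEF than in ESC by 8.46-fold (adjusted p 7.64e-12 and 3.01e-11, limma), while MEF minus NSC was -0.31 with an interval of -0.72 to 0.11. Among 6 chondrocyte markers 2, the transcription factors Sox5 and Sox6, were called higher in NSC than in ESC, and none lower. Of all genes, 11.4% were higher and 10% lower in that comparison. The matrix genes Acan, Matn1, Comp and Hapln1 had NSC means of 2.85 to 4.92, below the median of all values. The remaining fibrillar chains Col11a2, Col24a1 and Col27a1 were not among the 23 that varied, and Col27a1 read 6.91 to 7.26 in every group.

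Type VI collagen, the beaded filament that links cells to the surrounding matrix, again had MEF far above the rest in its 3 main chains. Below MEF the chains differed. The means in ESC-like cells and GSC were 7.56 and 6.49 for Col6a1, 8.30 and 8.38 for Col6a2 and 6.83 and 6.64 for Col6a3. Col6a1 read 10.06, 9.89 and 10.00 in MEF, 4.34, 4.42 and 4.91 in ESC and 5.02, 5.23 and 5.81 in NSC. It read 6.57, 6.41 and 6.48 in GSC, 5.94, 7.28, 6.06, 6.15 and 6.16 in gPS and 7.30, 7.73 and 7.65 in ESC-like cells. All but 1 of the gPS arrays lay below the GSC arrays, and gPS replicate 2 lay above them. Col6a2 read 11.38, 11.27 and 11.18 in MEF, 6.11, 6.22 and 6.64 in ESC and 6.83, 6.62 and 6.73 in NSC. In GSC it read 8.43, 8.25 and 8.47, in gPS 7.38, 8.48, 7.21, 7.28 and 7.22 and in ESC-like cells 8.20, 8.58 and 8.14, and again gPS replicate 2 stood apart, at the top of the GSC values. Col6a3 read 10.41, 10.24 and 10.21 in MEF, 4.51, 4.19 and 5.30 in ESC and 5.22, 5.28 and 5.24 in NSC. Its values were 6.99, 6.24 and 6.67 in GSC, 5.98, 7.62, 6.41, 6.31 and 6.39 in gPS and 6.70, 6.96 and 6.82 in ESC-like cells. The 3 chains exceeded ESC in MEF by 42.9-fold, 30.9-fold and 49.3-fold. Correlation over the 20 arrays was 0.97 between Col6a1 and Col6a2 and 0.97 between Col6a1 and Col6a3, and after subtraction of group means 0.82 and 0.83. These values describe arrays that share groups and processing, and gPS replicate 2 is among them. The chains Col6a4 and Col6a5 stayed below the median of all values in every group.

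Of type IV collagen, the sheet of basement membranes, the chains of the common trimer, Col4a1 and Col4a2, moved together. Col4a1 read 11.06, 11.00 and 11.10 in MEF, 7.52, 7.57 and 7.19 in ESC and 7.19, 7.03 and 7.23 in NSC. It read 8.21, 7.34 and 7.55 in GSC, 8.27, 8.10, 7.72, 7.75 and 8.15 in gPS and 8.51, 8.79 and 8.70 in ESC-like cells. After MEF, the ESC-like arrays were highest, and GSC and gPS overlapped, as did ESC and NSC. Col4a2 read 10.35, 10.31 and 10.22 in MEF, 6.53, 6.35 and 6.20 in ESC and 5.99, 6.14 and 6.28 in NSC. In GSC it read 7.31, 6.59 and 7.27, in gPS 7.24, 7.49, 6.78, 7.28 and 7.63 and in ESC-like cells 8.07, 8.33 and 8.27, in the same order of groups. MEF minus ESC was 3.63 ± 0.18 (SE) for Col4a1 and 3.93 ± 0.19 (SE) for Col4a2, and ESC-like minus ESC 1.24 ± 0.18 (SE) and 1.86 ± 0.19 (SE). The second Col4a1 probe set gave 0.70 for ESC-like minus ESC and was not called, and the mean of the Col4a1 probe sets gave 0.97, short of 2-fold. The correlation of this pair was 0.98 over the 20 arrays and 0.66 after subtraction of group means. For the type I partners Col1a1 and Col1a2 these values were 0.97 and -0.01, and for Col4a5 and Col4a6 0.62 and 0.09. Col3a1 and Col5a2, chains of different types, had 0.91 and 0.84, so high values within groups were not confined to partner chains.

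The X-linked neighbours Col4a5 and Col4a6 did not share this pattern. Col4a5 read 7.65, 7.46 and 7.46 in MEF, 4.34, 4.24 and 4.46 in ESC and 5.09, 5.19 and 4.85 in NSC. In GSC it read 4.58, 4.03 and 4.12, in gPS 5.17, 4.38, 4.59, 5.01 and 4.49 and in ESC-like cells 4.80, 5.02 and 5.35. A second probe set of Col4a5 put NSC at 6.37 and ESC-like cells at 5.68 against 2.95 in ESC, and called both higher than ESC (log2 differences 3.42 and 2.72). Col4a6 read 5.01, 4.89 and 5.00 in MEF, 4.72, 4.30 and 4.83 in ESC and 4.46, 4.69 and 4.54 in NSC. It read 4.62, 4.54 and 4.71 in GSC, 4.64, 4.51, 4.85, 4.53 and 4.57 in gPS and 4.53, 4.41 and 4.37 in ESC-like cells. Its group means spanned 0.53 log2 units and it was called in no comparison. Col4a3 and Col4a4, chains of the kidney glomerulus, stayed below the median of all values. Parietal endoderm, an extraembryonic cell type, makes type IV collagen in quantity. Of 9 markers of parietal and visceral endoderm, 2 were called higher and none lower in ESC-like cells than in ESC. MEF and GSC each had 2 higher and 1 lower. Of all genes, 5.11% were higher and 2.1% lower in ESC-like cells. The shares were 12.47% and 10.9% in MEF and 13.1% and 10.2% in GSC. The endoderm regulators Sox17, Gata6, Gata4 and Foxa2 had ESC-like means of 4.54 to 5.31. Thbd read 7.17 in ESC-like cells and 10.28 in MEF against 4.85 in ESC. Dab2 read 6.92 and 9.54 against 5.42. In GSC Afp read 8.54 and Foxa2 6.53, against 4.12 and 4.97 in ESC. Lama1 was lower in GSC and MEF, at 5.09 and 4.53 against 7.73 in ESC.

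Type VIII collagen, a short-chain network collagen of vessel walls and the cornea, was high in MEF, intermediate in ESC-like cells and low in NSC and ESC. Col8a1 read 11.75, 11.72 and 11.82 in MEF, 8.01, 8.28 and 7.97 in ESC-like cells and 5.99, 7.38, 5.99, 5.37 and 5.53 in gPS. It read 5.19, 5.66 and 5.41 in GSC, 4.27, 4.52 and 4.70 in ESC and 4.43, 4.44 and 4.45 in NSC. ESC-like cells stood above every gPS array, and gPS replicate 2 lay more than 1 log2 unit above the other gPS arrays. MEF exceeded ESC by 154-fold (adjusted p 4.92e-14, limma). Col10a1, the collagen of hypertrophic cartilage, had another order. It read 5.89, 5.80 and 6.11 in ESC-like cells, 4.93, 4.74 and 4.92 in MEF and 4.51, 4.15 and 4.52 in ESC. It read 4.12, 4.39, 4.17, 4.46 and 4.60 in gPS, 3.99, 4.29 and 3.58 in GSC and 3.92, 4.10 and 4.38 in NSC, so that the ESC-like arrays did not overlap any other group. ESC-like cells exceeded ESC by 2.90-fold (adjusted p 7.38e-07, limma). Without ESC-like replicate 3, Col10a1 was no longer called above each other group. Col8a2 was not among the 23 varying chains.

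Among the FACIT collagens, which coat fibrils, Col12a1 and Col16a1 peaked in MEF and Col9a3 in NSC. Col12a1 read 9.34, 9.14 and 9.47 in MEF, 5.93, 5.93 and 6.28 in ESC and 6.31, 5.93 and 6.04 in NSC. It read 5.91, 5.78 and 6.14 in GSC, 6.27, 6.00, 6.17, 6.53 and 6.10 in gPS and 6.89, 6.83 and 7.22 in ESC-like cells. Only MEF and ESC-like cells stood clear of the other groups, and ESC-like minus ESC, at 0.94, just missed the 2-fold minimum. A dimmer probe set of Col12a1 called it, at 2.74 log2 units. Col16a1 read 8.48, 7.85 and 8.21 in MEF, 6.22, 6.63 and 6.98 in ESC and 6.80, 6.70 and 6.58 in NSC. Its values were 6.61, 6.49 and 6.75 in GSC, 6.82, 6.87, 6.46, 6.67 and 7.04 in gPS and 6.79, 6.87 and 7.00 in ESC-like cells, all below MEF and all overlapping ESC.

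Type IX collagen decorates the type II fibril of cartilage. Col9a3 read 6.94, 7.07 and 6.86 in NSC, 6.45, 6.24 and 6.22 in ESC and 5.27, 5.45 and 5.25 in MEF. It read 5.86, 5.81 and 6.22 in GSC, 5.84, 6.06, 5.94, 5.90 and 5.91 in gPS and 5.52, 5.14 and 5.37 in ESC-like cells. NSC lay above every other array and MEF among the lowest, with MEF minus NSC at -1.64 ± 0.13 (SE) (adjusted p 6.3e-10, limma). Its partner Col9a1 was not among the varying chains by its brightest probe set, at 5.04 to 5.46 in all groups. The second probe set of Col9a1 read 6.18 in NSC and 3.56 to 4.02 elsewhere, and called NSC higher than ESC by 2.36 log2 units. Col14a1 was highest in MEF at 5.12 ± 0.34 (SD, n = 3), but no other probe set of it was called in MEF. Without MEF replicate 1, MEF minus NSC was 0.97 for Col14a1 and not called, and gPS minus MEF was not called either. Col7a1, the anchoring fibril of skin, read 7.27, 7.06 and 7.20 in MEF, 5.62, 5.62 and 5.68 in ESC and 5.28, 5.67 and 5.12 in NSC. It read 5.98, 6.05 and 5.93 in GSC, 6.08, 5.73, 6.01, 6.04 and 5.85 in gPS and 6.41, 6.38 and 6.07 in ESC-like cells. MEF was above all other arrays, and MEF minus ESC was 2.90-fold.

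Col18a1 and Col13a1 ran against the fibroblast pattern. Col18a1, a basement membrane proteoglycan whose cleaved end is endostatin, read 9.92, 9.78, 10.51, 10.46 and 10.85 in gPS, 9.91, 9.82 and 9.59 in ESC and 9.67, 9.47 and 9.87 in ESC-like cells. It read 9.08, 8.84 and 9.18 in GSC, 7.07, 7.09 and 7.01 in MEF and 5.23, 5.45 and 4.87 in NSC. The gPS, ESC and ESC-like arrays lay above GSC, GSC above MEF, and MEF above NSC, with no overlap between these steps. NSC minus ESC was -4.59 ± 0.21 (SE), the largest difference in that comparison among the 42 chains (adjusted p 1.41e-13, limma). GSC minus ESC was -0.74 and not called, whereas the second probe set of Col18a1 gave -1.42 and was called lower. Col13a1, a transmembrane collagen of cell junctions, read 5.64, 5.28 and 5.71 in GSC, 4.73, 4.63 and 4.85 in ESC and 4.50, 4.26, 4.29, 4.27 and 4.22 in gPS. It read 4.10, 4.30 and 4.26 in ESC-like cells, 3.88, 4.04 and 3.89 in MEF and 3.70, 3.88 and 3.87 in NSC. The GSC arrays stood above all others. The remaining transmembrane chains Col17a1, Col23a1 and Col25a1 were not among the varying chains, nor was Col15a1, the other multiplexin.

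**Figure D2:**
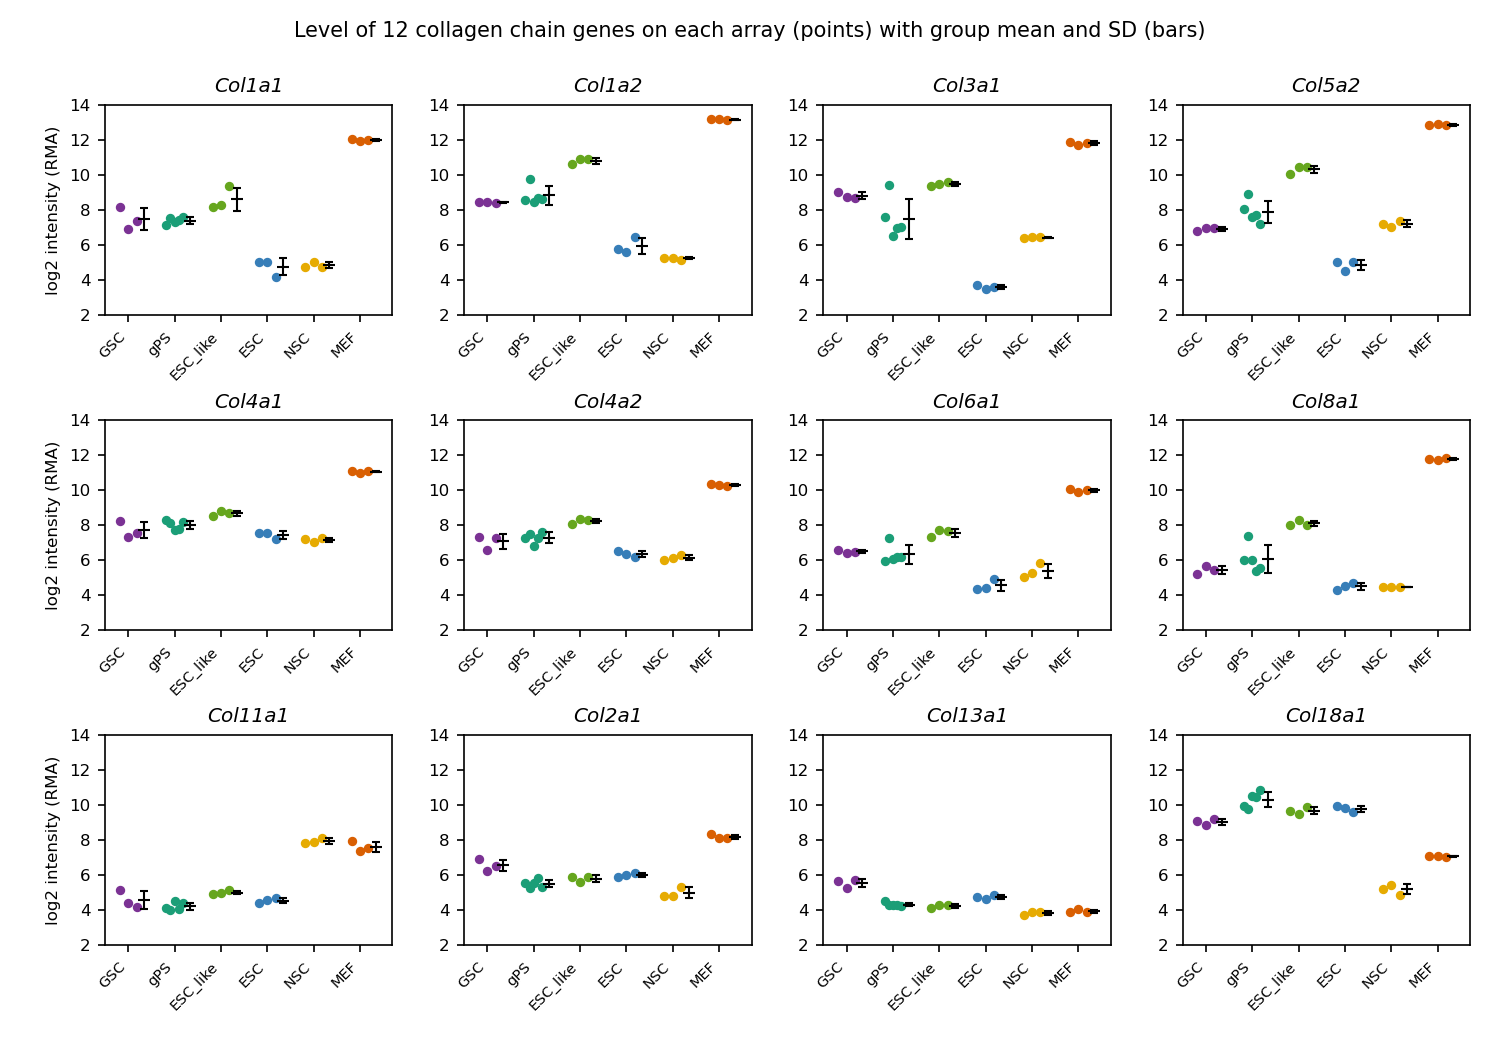
Log2 intensity of 12 collagen chain genes on each array (points, coloured by group) with the group mean and SD (bars, n = 3, or 5 for gPS). Type I, III, V, IV, VI and VIII chains peak in MEF, Col11a1 is high in NSC and MEF alone, Col13a1 is highest in GSC, and Col18a1 steps down from gPS to NSC; the top gPS point of Col3a1, at 9.44, is replicate 2.

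MEF was the group in which most varying chains were highest, and it stood apart from both ESC and NSC. Against ESC, 19 of the 42 chains were called higher in MEF and 1 lower, against backgrounds of 12.47% higher and 10.9% lower among the 18193 genes. The higher chains were 8 of 11 fibrillar, 3 of 6 type IV, 3 of 5 type VI, 3 of 9 FACIT, 1 of 3 hexagonal network chains and Col7a1, and the lower one was Col18a1. The largest differences were those of Col3a1 at 296-fold and Col5a2 at 257-fold. The median difference over the 42 chains was 0.29 log2 units against -0.10 over all genes. Against NSC 19 chains were again higher and 1 lower (backgrounds 8.84% and 8.13%, or 17% in either direction), with Col9a3 as the lower one. The largest differences there were 244-fold for Col1a2, 159.9-fold for Col8a1 and 142-fold for Col1a1. Both comparisons use the same MEF arrays.

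NSC differed from ESC in few chains. Of 42, 4 were called higher, Col11a1, Col3a1, Col5a2 and Col5a1, and 2 lower, Col18a1 and Col2a1, against 11.4% and 10% of all genes. Col3a1 and Col5a2 were 7.04-fold and 5.11-fold higher (adjusted p 1.23e-05 and 2.19e-07, limma), at means of 6.43 and 7.21 in NSC. Col1a1 and Col1a2 differed from ESC by 0.10 (interval -0.52 to 0.71) and -0.72 (interval -1.24 to -0.21), neither of them called. Type IV and VI chains were not called either by their brightest probe sets. With the mean of the probe sets Col5a1 fell short of 2-fold, at 0.90, while Col4a5 (2.06) and Col9a1 (1.31) were called higher. Col2a1, at -1.01, sat at the edge of the 2-fold minimum, and the call ended without NSC replicate 1 or 2 or ESC replicate 3.

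Between gPS cells and the GSC from which they arose, 1 of the 42 chains was called higher in gPS, Col18a1, and 5 lower, Col13a1, Col3a1, Col5a3, Col5a1 and Col2a1, where the backgrounds were 9.1% and 10.9%. The share of chains called was 14.3%, below the 20% of all genes. Col18a1 rose 2.41-fold, 1.27 ± 0.19 (SE) (adjusted p 7.97e-06, limma), and every gPS array was above every GSC array. Col13a1 fell 2.34-fold, -1.23 ± 0.11 (SE) (adjusted p 3.53e-09), with no overlap. Col3a1 fell 2.49-fold, -1.31 ± 0.39 (SE) (adjusted p 0.0072), and without gPS replicate 2 the difference was -1.80. When only the GSC and gPS arrays were in the fit, Col3a1 was no longer called. Col2a1 differed by -1.05 ± 0.16 (SE), and Col5a3 by -1.11 ± 0.19 (SE). Without gPS replicate 2, Col2a1 was no longer called at -0.995, nor was Col5a3 without gPS replicate 3 (-0.968), nor Col5a1 without gPS replicate 3 or 5 (-0.967 and -0.953). With the mean of its probe sets Col3a1 stood at -0.94, Col5a1 at -0.82 and Col5a3 at -0.65, none of them called. Type I chains were not called, at -0.09 for Col1a1 (interval -0.64 to 0.45) and 0.39 for Col1a2 (interval -0.08 to 0.85), nor were the type IV and VI chains, although Col6a2 was called lower at -1.11 without gPS replicate 2. Without GSC replicate 1, the array with the large Actb difference, only 3 chains were called, since Col2a1, Col5a1 and Col5a3 fell short of 2-fold at -0.88, -0.98 and -0.90. Its values were the highest among the 3 GSC arrays for 16 of the 42 chains and for 12 of the 23 that varied. GSC replicate 3 was highest for 17 and 6, and GSC replicate 2 for 9 and 5. The part of RNA quality in these results was not tested.

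Compared with ESC, gPS cells had 9 chains called higher and none lower, where 2.36% of all genes were higher and 2.13% lower: Col3a1, Col5a2, Col1a2, Col1a1, Col6a3, Col6a1, Col8a1, Col5a1 and Col6a2. The difference was 14.9-fold for Col3a1, 8.24-fold for Col5a2, 7.34-fold for Col1a2 and 6.29-fold for Col1a1 (adjusted p 2.63e-07, 1.16e-08, 7.95e-09 and 2.56e-07, limma). The dimmer probe set of Col5a2 gave a log2 difference of only 0.15 and was not called. At an unadjusted p under 0.05, limma gave 15 higher and 3 lower. Type IV chains were not called, Col4a1 at 0.57 and Col4a2 at 0.93 (interval 0.57 to 1.28), and Col18a1 was at 0.53. Without gPS replicate 2 the difference of Col3a1 was 3.41, of Col1a2 2.64 and of Col6a1 1.52, and Col6a2, at 0.95, was no longer called. With the mean of the probe sets Col5a1 (0.92), Col6a2 (0.82) and Col8a1 (0.97) fell short of 2-fold.

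GSC cells had 8 chains above ESC and none below, where 13.1% and 10.2% of all genes were called, and at an unadjusted p under 0.05 limma gave 16 higher and 5 lower. The higher chains were Col3a1 at 36.9-fold, Col1a1 at 6.71-fold, Col5a1 at 5.78-fold, Col1a2 at 5.62-fold, and Col6a2, Col5a2, Col6a3 and Col6a1 at 3.81-fold to 4.17-fold. With its dimmer probe set Col5a2 was at 0.38 log2 units and not called. Col8a1 was at 0.93 and not called, with an interval of 0.27 to 1.59, but was called at 1.04 without GSC replicate 1 and at 1.03 without ESC replicate 3. Col2a1 and Col13a1, both higher in GSC than in gPS, were 0.56 and 0.80 against ESC, short of 2-fold. The comparisons of GSC and of gPS with ESC share the ESC arrays, and the 3 ESC arrays thus enter both sets of values.

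The ESC-like cells had 12 chains above ESC and none below, against 5.11% and 2.1% of all genes, and at an unadjusted p under 0.05 limma gave 16 higher and 7 lower. Col3a1 was 58.2-fold higher, Col5a2 44.2-fold, Col1a2 28.7-fold, Col1a1 14.6-fold and Col8a1 12.1-fold (all adjusted p at most 2.65e-08, limma). Col5a1, Col6a1, Col6a2, Col6a3, Col4a1, Col4a2 and Col10a1 were the others. gPS cells lay below the ESC-like cells in 8 chains and above in none, where 3.74% and 1.11% of all genes were called and limma gave 15 lower and 7 higher at an unadjusted p under 0.05. The gap gPS minus ESC-like was -2.42 ± 0.24 (SE) for Col5a2, -2.04 ± 0.28 (SE) for Col8a1, -2.03 ± 0.17 (SE) for Col5a1 and -1.97 ± 0.39 (SE) for Col3a1. Without gPS replicate 2, Col6a2 was also called lower, at -1.03. Col1a2, Col10a1, Col6a1 and Col1a1 completed the list, and Col1a1 was no longer called, at -0.83, without ESC-like replicate 3. The ESC-like cells came from another laboratory and an unnamed strain, which cannot be told apart from the cell type. Against MEF, gPS cells were lower in 19 chains and higher in Col18a1 alone (backgrounds 12% and 11.2%).

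**Figure D3:**
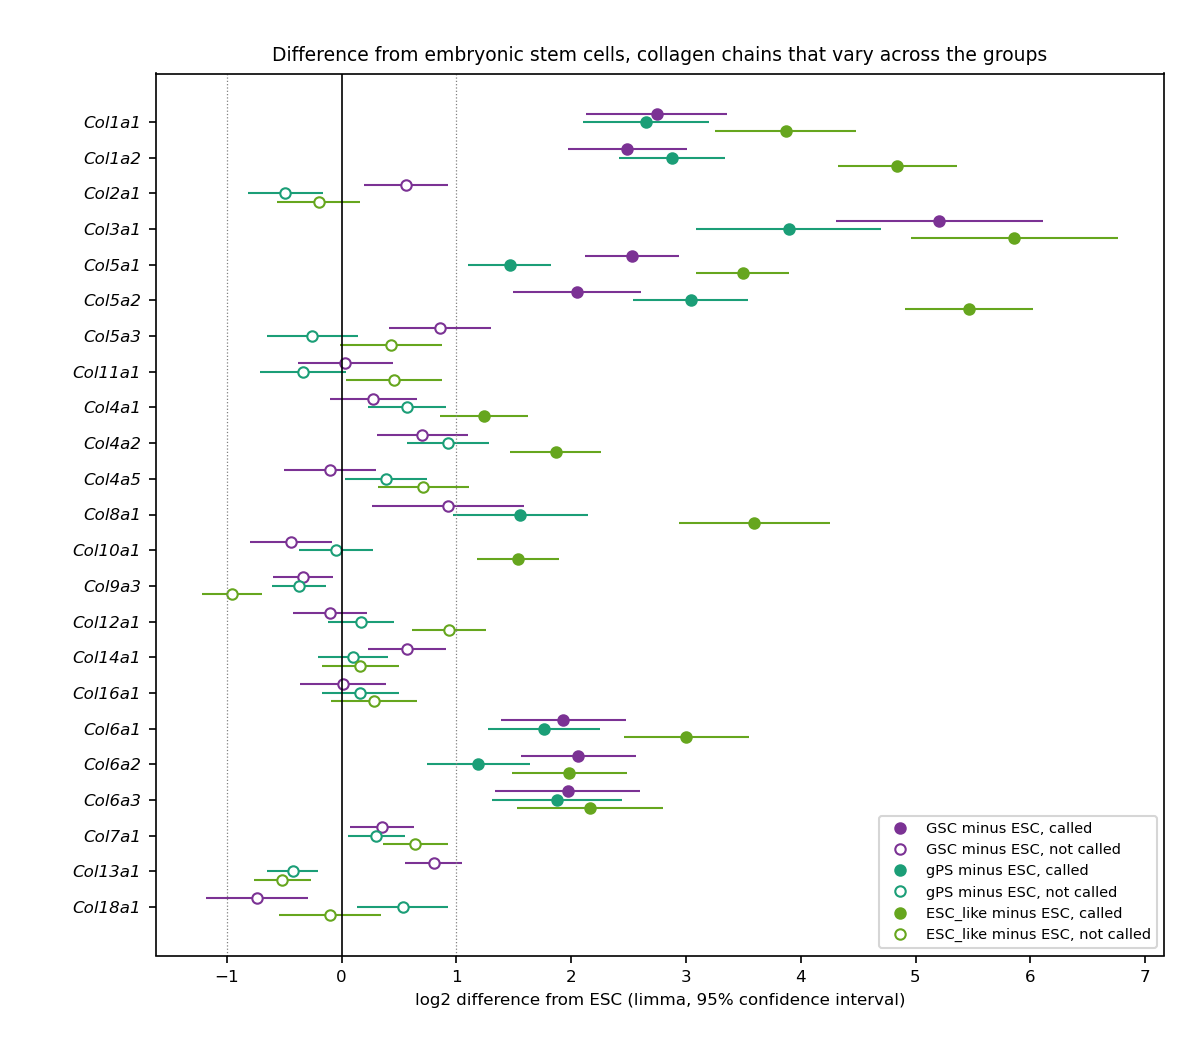
Log2 difference from ESC with its 95% confidence interval (limma) for the 23 collagen chains that varied, in GSC, gPS and ESC-like cells; filled points were called and dotted lines mark 2-fold. ESC-like points lie farthest right for Col1a1, Col1a2, Col3a1, Col5a1, Col5a2 and Col8a1, with Col3a1 at 5.86, and no chain was called lower than in ESC.

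GSC, gPS, ESC and ESC-like cells were all grown on fibroblasts, so fibroblast markers are given beside these results. The mean log2 intensity of the 15 fibroblast markers was 5.01 to 5.21 on the ESC arrays, 6.15 to 6.33 in GSC, 6.46 to 7.35 in gPS, 7.62 to 7.84 in ESC-like cells and 5.93 to 6.05 in NSC, which had no feeder named. Against ESC, 7 of the 15 were called higher and 1 lower in GSC, 8 and 0 in gPS, and 11 and 0 in ESC-like cells. In NSC 6 were higher and 1 lower. Of all genes, 13.1% were higher and 10.2% lower in GSC, and 11.4% and 10% in NSC. The shares were 2.36% and 2.13% in gPS and 5.11% and 2.1% in ESC-like cells. For the 14 collagen chains and 11 markers that exceeded ESC 8-fold or more in MEF, each array's level was expressed as a percent of the MEF mean on the linear scale, with the ESC mean as 0. The median over the 14 chains was 1.80% to 6.49% on the GSC arrays, 2.26% to 6.31% in gPS, 9.42% to 15.1% in ESC-like cells and 0.844% to 1.11% in NSC. Over the 11 markers it was 1.49% to 2.25% in GSC, 3.37% to 7.55% in gPS, 11.0% to 15.9% in ESC-like cells and 0.564% to 0.899% in NSC. GSC replicate 1 gave the top of the GSC range for the chains, and the other 2 GSC arrays gave 1.80% and 3.22%. gPS replicate 2 gave the top of both gPS ranges, and the other 4 arrays spanned 2.26% to 3.69% for the chains and 3.37% to 6.13% for the markers. ESC cells had feeders too, so the scale starts at their level and not at 0 fibroblast RNA.

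Single genes did not share 1 percentage within a group. In GSC Col3a1 reached 12.3% ± 1.76 of the MEF level (SD, n = 3), Col6a2 10.6% ± 1.09 and Col5a1 9.43% ± 1.23, while Col5a2 was at 1.23% ± 0.105 and Col8a1 at 0.593% ± 0.203. Among the markers in GSC, Dcn, a small proteoglycan on collagen fibrils, was at 28.7% ± 4.97 and the receptor Pdgfra at 15.1% ± 1.17, while Acta2, smooth muscle actin, was at -0.203% ± 0.221 and Fbln5 at 0.309% ± 0.0875. In gPS Pdgfra was at 0.43% ± 0.638 (SD, n = 5), Acta2 at 6.85% ± 1.47 and Dcn at 12.3% ± 11.1, beside 6.49% ± 7.03 for Col3a1 and 4.61% ± 2.43 for Col1a2. Without gPS replicate 2 the means were 0.156% for Pdgfra, 7.50% for Dcn, 3.38% for Col3a1 and 3.53% for Col1a2 (n = 4). ESC-like cells had 32.3% ± 3.14 for Acta2 (SD, n = 3) and 42.5% ± 9.15 for Postn, beside 20.2% ± 1.40 for Col5a1, 19.4% ± 1.46 for Col3a1 and 18.9% ± 2.24 for Col1a2. NSC had Col11a1 at 126% ± 16.4 and Thy1 at 30.9% ± 10.5. In GSC 1 of 7 measured Sertoli and Leydig markers was called higher than in ESC, a share near the 13.1% of all genes. This was Wt1, at 6.42 in GSC and at most 4.80 in the other groups. Of 4 macrophage markers, 1 was called higher and 1 lower in MEF than in ESC. The counts were 0 higher and 1 lower in GSC, 0 and 1 in gPS and 0 and 0 in ESC-like cells. Of all genes, 12.47% were higher and 10.9% lower in MEF, and 13.1% and 10.2% in GSC. The shares were 2.36% and 2.13% in gPS and 5.11% and 2.1% in ESC-like cells. The part of feeder fibroblasts, or of testis somatic cells, in these collagen levels was not tested.

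**Figure D4:**
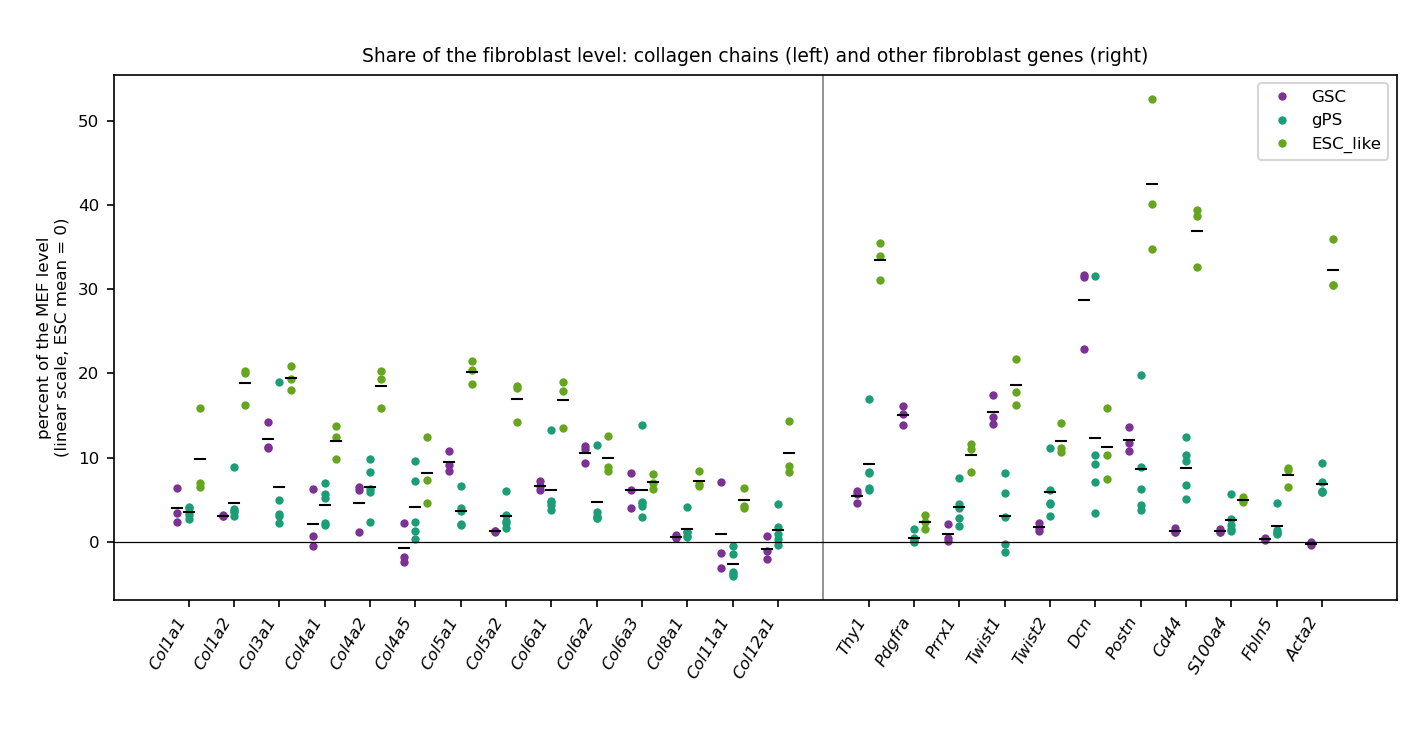
Percent of the MEF level (vertical axis, linear scale, ESC mean 0) on each GSC, gPS and ESC-like array (points, with the group mean as a bar) for the 14 collagen chains at left and 11 fibroblast markers at right. ESC-like points lie mostly above the others, at 19.4% on average for Col3a1. The means of the chain Col6a2 and of the markers Dcn and Pdgfra are highest in GSC.

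Other genes of collagen biology were read from lists by role. Of 19 measured genes for hydroxylation, folding and export of chains, 10 were called higher in MEF than in ESC and none lower, with a median of 1.05 log2 units against -0.10 over all genes. The shares of all genes called against ESC, which stand beside the counts of each list here, were 12.47% higher and 10.9% lower in MEF, 11.4% and 10% in NSC, 13.1% and 10.2% in GSC, 2.36% and 2.13% in gPS and 5.11% and 2.1% in ESC-like cells. Serpinh1, the collagen chaperone of the endoplasmic reticulum, was 6.56 log2 units higher, and the prolyl 4-hydroxylase chain P4ha3 3.63. Serpinh1 was also called higher than ESC in NSC (5.13), GSC (1.87), gPS (3.09) and ESC-like cells (4.55). In gPS it was the only 1 of the 19 called against ESC, and GSC had 2 higher and 3 lower, both shares near those of all genes (4.49% and 23.3% in either direction). Among the lower ones in GSC were Crtap at -2.24 and Sec24d at -2.02. Between GSC and gPS, where 9.1% of all genes rose and 10.9% fell, 3 of the 19 rose, Crtap (1.95), Sec24d (1.24) and Serpinh1 (1.22), and the lysyl hydroxylase Plod1 fell (-1.76). Col3a1 and Col5a1 fell in the same comparison.

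Of 10 measured genes for propeptide cleavage and cross-linking, 7 were higher in MEF than in ESC and none lower (median 2.41). Lox, the lysyl oxidase that links collagen chains, was 8.14 higher in MEF, 5.00 in ESC-like cells, 2.61 in gPS and 2.48 in GSC, all called, and -0.05 in NSC, not called. Pcolce2, an enhancer of propeptide cleavage, was -4.61 in GSC against ESC and 3.69 in gPS against GSC, and its paralog Pcolce -1.68 and 2.61. Of the 10 genes, 1 was higher and 2 lower in GSC than in ESC. From GSC to gPS 3 rose and none fell, where 9.1% of all genes rose and 10.9% fell. Among 10 fibril-binding proteoglycans and glycoproteins, of which 4 are also fibroblast markers, 9 were higher in MEF than in ESC, led by Thbs1 at 7.84 and Thbs2 at 6.66. In gPS 5 were higher than in ESC and 1 lower, in GSC 5 and 1, and in ESC-like cells 6 and 0, with Postn at 2.45, 3.06 and 4.73. Of 9 collagen-degrading proteases and their inhibitors, 7 were higher in MEF than in ESC, 7 in ESC-like cells, 4 in gPS and 3 in GSC, where 1 was lower. Timp2, an inhibitor, led in each, at 6.84, 5.10, 3.31 and 2.80. Mmp13, a collagenase, was 3.79 in ESC-like cells.

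Of the 9 measured collagen receptors, in MEF 5 were higher than in ESC, in NSC 3, in ESC-like cells 3, in GSC 1 and in gPS none, and none was lower. The discoidin receptor Ddr1 was 2.18 in MEF, 2.59 in NSC and 2.04 in GSC against ESC, and it was the 1 receptor that fell between GSC and gPS (-2.03). Ddr2 was 1.72 in ESC-like cells. The 12 basement membrane partners of type IV collagen were called in both directions. In MEF 6 were higher and 4 lower than in ESC, with the laminin chain Lamb1 at 2.62 and Lama1 at -3.20. GSC had 1 higher, Lamb1 (2.54), and 5 lower, among them Lama1 (-2.64) and Lamc1 (-2.59), and between GSC and gPS 5 rose and none fell, led by Lamc1 (2.66) and Lama1 (2.30). NSC had 3 higher and 4 lower than ESC, with Nid1 and Nid2, the linkers of laminin to type IV collagen, at -3.68 and -3.54. Of 15 measured regulators of collagen transcription, 2 of them also fibroblast markers, 9 were higher and 1 lower in MEF than in ESC. The counts were 8 higher and 3 lower in NSC, 3 and 1 in GSC, 3 and 0 in gPS and 6 and 0 in ESC-like cells. Ccn2, a target of TGF-β signalling, was 3.59 in MEF but -4.55 in NSC and -2.82 in GSC, and it rose by 3.58 from GSC to gPS. In that last comparison 3 of the 15 rose and none fell.

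The other 19 chains had group means spanning 0.27 to 0.84 log2 units. Dimmer probe sets were at hand for 12 of them, and for 4, Col9a1, Col19a1, Col22a1 and Col25a1, singled out after their values were seen, a dimmer set was called where the brightest was not. A pair of Col22a1 probe sets read 5.21 and 5.22 in GSC and 3.22 to 4.07 in the other groups, and 1 of Col25a1 read 4.87 in GSC and 3.18 to 3.40 elsewhere. Their GSC minus ESC differences were 1.19, 1.79 and 1.69 log2 units, all called higher, while the brightest probe sets gave -0.07 and -0.02. Col19a1 likewise read 4.80 in MEF on a dimmer probe set and 2.81 to 3.12 elsewhere. Across the 27 genes with several probe sets, 19 to 23 had the same call on all of them, depending on the comparison, and opposite calls did not occur. Probe sets may read different transcript ends, and levels of different probe sets were not set against each other.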

How the data were processed

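Biotin-labelled RNA of 20 mouse samples was hybridised to Affymetrix arrays of 45101 probe sets. The deposited values are log2 intensities, and RMA is named by the authors, per the submitters' processing notes, without a version. This method subtracts background, sets all arrays to 1 distribution and combines the probes of each set, and whether all arrays were run together is not stated. Values were used as deposited.

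Of the probe sets, 64 controls, 932 with several gene symbols and 9160 with none were left out. Symbols came from the platform annotation and were updated through gene identifiers for 34741 probe sets, and each gene was read from its brightest probe set by the mean of the 20 arrays, which gave 18193 genes.

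A model of 6 group means and no covariate (limma 3.58.1, R 4.3.3) covered the 20 arrays and gave 9 comparisons. Calls needed a 2-fold difference and p-values under 0.05 after Benjamini-Hochberg adjustment across the 18193 genes. SE stands for the moderated standard error of limma, and intervals are at 95%. The fit was tested on simulated data. No pair of arrays was identical. Same-numbered arrays of different groups deviated together at r of -0.17 to 0.27 over 45 pairs, of which 7 were over 0.1. Pairs with different numbers are not given beside them, so these values cannot show whether the numbers pair arrays. The main model used no pairing.

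The collagen chains, the lists of related and marker genes and the rule for naming genes were chosen with earlier results of these data known. Every chain could be named, 17 fixed chains and the widest-ranging or group-highest chains of each class array by array. From each list up to 4 called genes with the largest difference and up to 2 not called with the smallest could be named per comparison. Not measured were Fkbp10, Adamts2, Adamts14, Loxl2, Itga11, Runx2, Fbn1 and Insl3. Alternatives were scaling, array weights, variance model, dim-gene filter, probe-set choice, thresholds, arrays in the fit, the replicate number as a block, leaving out single arrays and, added after seeing the data, leaving out GSC replicate 1 and gPS replicate 2 together. Figures used Python 3.11.15, pandas 2.3.3, numpy 2.4.6 and matplotlib 3.10.9.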

Additional observations from a re-analysis of the deposited data

Results flagged for a closer look

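In the gPS group of 5 arrays, 7 of the 42 collagen chains had 1 array farther from the rest than Dixon's test allows at 95%, where chance gives about 1 group in 20. In 5 of them the array was gPS replicate 2, which read 9.78 for Col1a2 (the next highest gPS array 8.70), 7.28 for Col6a1 (6.16), 8.48 for Col6a2 (7.38), 7.62 for Col6a3 (6.41) and 3.61 for Col6a5 (3.06). The others were Col13a1 in gPS replicate 1 at 4.50 (4.29) and Col24a1 in gPS replicate 3 at 3.18 (2.82). All 7 values were above the rest of their group. Col6a5 and Col24a1 lay below the median of all values in every group.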

How the results depend on the processing

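Over all alternatives, none of the 12228 values of single chains reversed a call, 82 lost a call and 110 gained it. Of these values 7560 came from leaving out 1 array. In most of them that array was in neither compared group, so the difference could not change. Dropping the minimum fold could only add calls, and the stricter thresholds could only remove them. The totals thus overstate how far stability was tested. For gPS minus GSC 6 chains were called, but 3 when probe sets were averaged per gene, 12 with no minimum fold and 0 at an adjusted p under 0.01 and 4-fold. With no minimum fold, 14 chains were called for NSC minus ESC, 15 for gPS minus ESC, 19 for GSC minus ESC and 19 for gPS minus ESC-like, and 1 chain each stood above every other group in GSC, gPS and NSC. NSC also had 1 such chain with the mean of the probe sets and 1 when probe sets with names ending in x_at, s_at or a_at were left out. At an adjusted p under 0.01 and 4-fold, 4 chains were called for gPS minus ESC and 3 for gPS minus ESC-like, and 0 chains stood above every other group in ESC-like cells. Leaving out 1 array at a time gave 20 to 21 chains for MEF minus ESC, 5 to 6 for NSC minus ESC, 19 to 20 for MEF minus NSC, 3 to 7 for gPS minus GSC, 8 to 10 for gPS minus ESC, 8 to 9 for GSC minus ESC, 7 to 9 for gPS minus ESC-like, 12 to 13 for ESC-like minus ESC, 19 to 20 for gPS minus MEF, 15 to 16 above every other group in MEF and 0 to 1 in ESC-like cells, and 23 chains varied each time. With the replicate number as a block the counts were 6 for gPS minus GSC, where Col3a1 and Col5a1 were lost and Col5a2 and Col8a1 gained, 20 for MEF minus ESC, 9 for gPS minus ESC and 8 for GSC minus ESC. The block changed 1 other call, Col4a2 for gPS minus ESC-like, which was gained. The cause of these changes was not tested beyond the thresholds and probe sets that define each alternative. Signals near the array background limit the 14 chains below the median of all values, for which small differences could not be measured.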
